A study of Homo sapiens with 18 samples.

Results

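The genes described here encode heat shock proteins and the co-chaperones that work with them. They are a fixed list of 35 chaperone genes, matched to the count table by Ensembl identifier, out of 22034 genes in the table. The list was named for the cytosol, but HSPA9, HSPD1 and HSPE1 act in mitochondria, SERPINH1 folds collagen in the endoplasmic reticulum and HSPA13 is found with microsomes, so these 5 are described apart or named as such. All 35 genes were found. A filter on low counts left 34 of them among 14164 genes tested, and CRYAB, a small heat shock protein, did not pass it, with 0 to 7 counts in each sample.

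RNA-seq was carried out on VCaP, a prostate cancer cell line whose TMPRSS2-ERG fusion drives high expression of the transcription factor ERG. There were 18 samples, 3 in each of 6 groups. VCaP-shERG cells, which carry a doxycycline-inducible hairpin against ERG as a stable, puromycin-selected line, received vehicle (DMSO in the labels) or 1 µg/mL doxycycline (Dox). Parental VCaP cells, which carry no hairpin, received DMSO or 50 µM PBITE-1, a small molecule made to bind the PNT domain of ERG, for 4, 8 or 12 h. The duration of Dox and the collection time of the DMSO samples are not in the labels, and neither Dox in cells without the hairpin nor an inactive relative of PBITE-1 was analysed here. The study's methods call the PBITE-1 samples biological replicates. A figure legend gives 3 biological replicates for PBITE-1 against vehicle. The section on statistics says in general that biological replicate samples were used. Neither says it of the shERG samples by name, and the labels of the DMSO and shERG samples do not say so. For the shERG samples, p-values then measure only the spread between samples, which may be technical.

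HSP70 proteins bind exposed hydrophobic stretches of unfolded proteins in cycles of ATP hydrolysis. J-domain proteins (the DNAJ genes) deliver clients and start hydrolysis, while HSP110 and BAG proteins release the nucleotide and with it the client. HSP90 takes over partly folded clients, steroid receptors such as the androgen receptor among them, with the help of co-chaperones. When unfolded proteins accumulate, the transcription factor HSF1 is freed from chaperones, binds heat shock elements in promoters and raises transcription of many of these genes.

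Totals ranged from 11308600 to 17483423 counts per sample, and levels are given as CPM, counts relative to the library total after TMM scaling over all 18 samples. ERG itself, the target of the hairpin, stood at 432, 421 and 408 CPM with vehicle and at 155, 156 and 149 CPM with Dox, a log2 fold change of -1.44 ± 0.04 (SE). In parental cells it stood at 295, 304 and 312 CPM with DMSO and at 104, 90.4 and 103 CPM after 12 h of PBITE-1. The 9 luminal prostate markers fixed with the gene lists summed to 7920 to 8099 CPM in DMSO and to 3380 to 3950 CPM at 12 h, and from 9782 to 9984 CPM with vehicle to 6030 to 6247 CPM with Dox, with none at 0. The 9 markers of other cells in the table summed to 50.1 to 54.5 CPM in DMSO and 28.5 to 33.6 CPM at 12 h, and to 37.2 to 41.4 CPM with vehicle and 65.6 to 67.0 CPM with Dox, most of it ALB. Of the 5 that were tested, COL1A1 and PECAM1 were called higher (2.19 and 4.08) and VWF and ALB lower (-3.28 and -1.05) at 12 h, and COL1A1 and VWF higher after Dox (2.09 and 1.19), while PTPRC, CD3E, COL1A2 and DCN never exceeded 4 counts. PECAM1 passed the filter on low counts only through the 12 h samples and VWF only through the Dox samples. The calls of these markers are therefore a description only. The part of these marker shifts in the results below was not tested. In these bulk samples a change in a level cannot be told apart from a change in the number of cells that express the gene or in the RNA they hold.

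After 12 h of PBITE-1, HSPA1A, HSPA1B, HSPA1L, HSPA2, HSPA6, HSPA13, DNAJB1, DNAJB2, DNAJB4, DNAJB5 and BAG3 were called higher, and HSPE1 and BAG1 lower. HSPA8, HSP90AA1, HSP90AB1, HSPD1 and HSPA9 stayed short of a call at 4, 8 and 12 h. A gene was called when its adjusted p (limma, Benjamini-Hochberg over all tested genes) was under 0.05 and its log2 fold change was beyond 1 in either direction. At 4 h, 6 of the 34 genes were called higher and 0 lower in limma, against 7.28% and 2.99% of all tested genes. By unadjusted p under 0.05 and with no limit on the fold, 1 gene was lower at 4 h, and edgeR and DESeq2 also called 0 lower. At 8 h, 8 were called higher and 1 lower, against 14.9% and 8.86%. At 12 h, 11 were called higher and 2 lower, against 17.1% and 15.4%, so that 13 of 34 were called in either direction beside a background of 32.4%. These counts take HSPA1A and HSPA1B, which share reads, as 2 genes. Counted as 1 gene, they left 5, 7 and 10 called higher at 4, 8 and 12 h, beside 1030, 2103 and 2419 of 14163 tested genes. The calls lower stayed at 0, 1 and 2. HSPA6 passed the filter on low counts only through the 12 h samples and HSPB1 only through the Dox samples, where they were high, so that their calls are a description only. At 4, 8 and 12 h the 34 genes had median log2 fold changes of 0.37, 0.31 and 0.52, while the median over all tested genes was -0.01, -0.02 and -0.01. The 3 times share the same 3 DMSO samples. Between times, 8 h against 4 h gave 0 calls in either direction in limma, edgeR and DESeq2, beside 4.43% of all genes called higher and 2.22% lower, although 6 of the 34 were higher and 13 lower by unadjusted p under 0.05 and 1 was called without PBITE-1 8 h replicate 1 or replicate 3. From 8 to 12 h, 4 genes were called higher, beside 3.48%, and 0 lower by any of the 3 tools, beside 6.59%, with 13 lower by unadjusted p under 0.05. From 4 to 12 h, 6 were called higher and 2 lower, beside 9.08% and 11.0%.

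**Figure D1:**
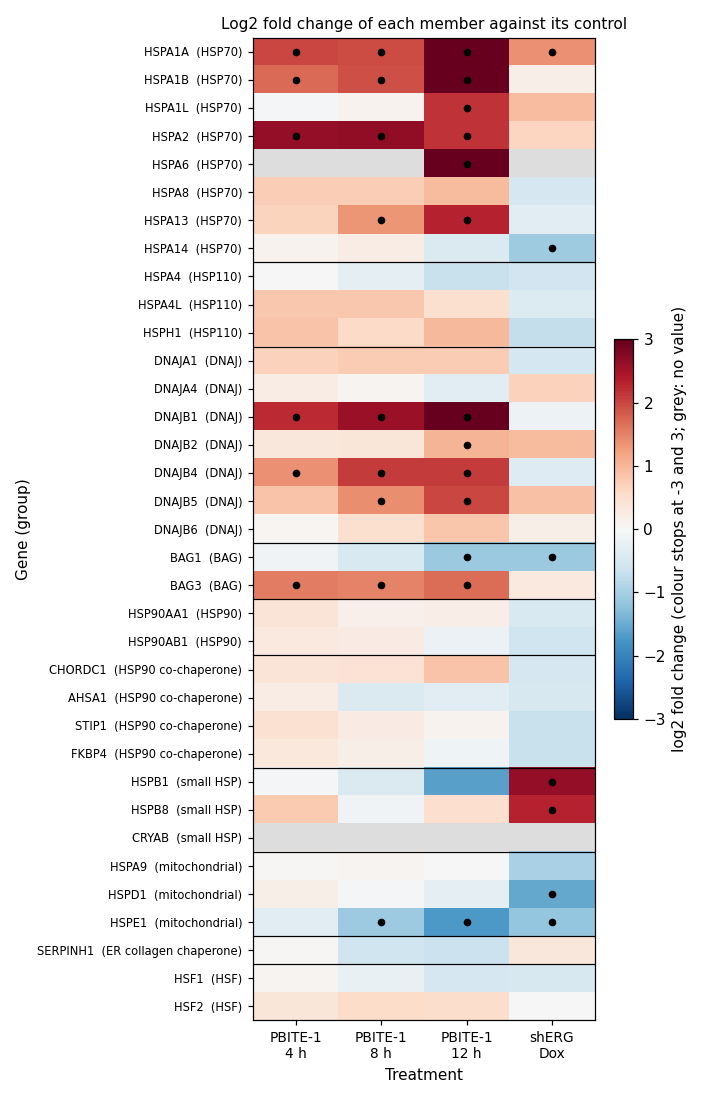
Log2 fold change of each of the 35 genes (rows, grouped by family) against its own control for PBITE-1 at 4, 8 and 12 h and for Dox (columns), with black dots on called values. Grey marks CRYAB, which was not tested, and HSPA6 where both groups were at or under 3 counts on average. The 6 genes with dots at 4 h of PBITE-1 are HSPA1A, HSPA1B, HSPA2, DNAJB1, DNAJB4 and BAG3.

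By adjusted p alone, 22 genes were higher and 1 lower at 4 h, beside 26.4% and 24.7% of all genes, 23 and 6 at 8 h, beside 35.9% and 37.0%, and 20 and 11 at 12 h, beside 39.4% in each direction.

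Among the inducible HSP70 genes, HSPA1A and HSPA1B lie in tandem on chromosome 6 and encode almost the same protein, the main stress-inducible HSP70. GENCODE 29 places them on GRCh38 at chr6:31815464-31817946 and chr6:31827735-31830255, both on the plus strand. In their transcripts, 73.6% of the 31-base words of HSPA1A also occur in HSPA1B, so reads from the pair can be assigned to either gene, and the sum of both is the safer value. HSPA1B stood at 13.4, 11.1 and 11.4 CPM in DMSO, 37.9, 38.6 and 38.4 CPM at 4 h, 45.2, 42.9 and 45.9 CPM at 8 h and 118, 125 and 115 CPM at 12 h. The groups did not overlap between DMSO and any time, and the level at 12 h was well above that at 8 h. HSPA1A was assigned far fewer reads, 1.18, 0.513 and 0.718 CPM in DMSO and 19.6, 23.6 and 17.8 CPM at 12 h. Summed, the pair was 1.73 ± 0.10 above DMSO on the log2 scale at 4 h and 1.94 ± 0.09 at 8 h, and reached 3.50 ± 0.09 at 12 h (SE, limma adjusted p = 3.13e-30 at 12 h). Most of the rise came in 2 steps, before 4 h and after 8 h: between 4 and 8 h the sum rose by only 0.21 ± 0.07 on the log2 scale, and between 8 and 12 h by 1.56 ± 0.06.

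The promoters of the pair are nearly alike too. The stretches just upstream of both genes are shown because each holds a heat shock element, written here as GAANNTTC or TTCNNGAA with the matching letters in capitals, and because 117 of their 121 bases are identical. Sequences are from RefSeq on GRCh38.p14, written along the strand of the gene.
HSPA1A (chr6:31815343-31815463, plus strand): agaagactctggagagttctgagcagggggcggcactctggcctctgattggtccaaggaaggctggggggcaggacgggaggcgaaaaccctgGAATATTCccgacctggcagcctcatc
HSPA1B (chr6:31827539-31827659, plus strand): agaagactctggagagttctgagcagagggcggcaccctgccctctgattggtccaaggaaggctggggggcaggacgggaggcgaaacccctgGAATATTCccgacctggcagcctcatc

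HSPA6, a strictly stress-inducible HSP70 that is nearly silent in unstressed cells, responded late. It had 0, 1 and 1 counts in the DMSO samples, 4, 1 and 0 at 4 h and 4, 3 and 1 at 8 h, and then 260, 364 and 305 counts at 12 h. The 12 h samples, at 19.7, 24.3 and 21.00 CPM, were at least 112-fold higher than the level that 3 counts per library would give in DMSO. No p is given, because the gene entered the test only through these samples. No fold is given at 4 and 8 h, where the mean levels of 0.139 and 0.181 CPM were under that floor of 0.193 CPM. Its transcript shares 56.6% of its 31-base words with HSPA7, a neighbouring near-identical copy on chromosome 1, so part of its reads may belong there. The promoter of HSPA6 is shown because it carries a longer element, in which the shorter one is followed after any 2 bases by a further GAA or TTC unit, which 0.490% of 35116 promoter windows hold, besides a separate shorter element.
HSPA6 (chr1:161524340-161524539, plus strand): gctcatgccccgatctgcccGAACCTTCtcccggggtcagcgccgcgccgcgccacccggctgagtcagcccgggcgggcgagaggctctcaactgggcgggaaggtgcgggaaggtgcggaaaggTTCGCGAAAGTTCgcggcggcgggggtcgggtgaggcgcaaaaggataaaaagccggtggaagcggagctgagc

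**Figure D2:**
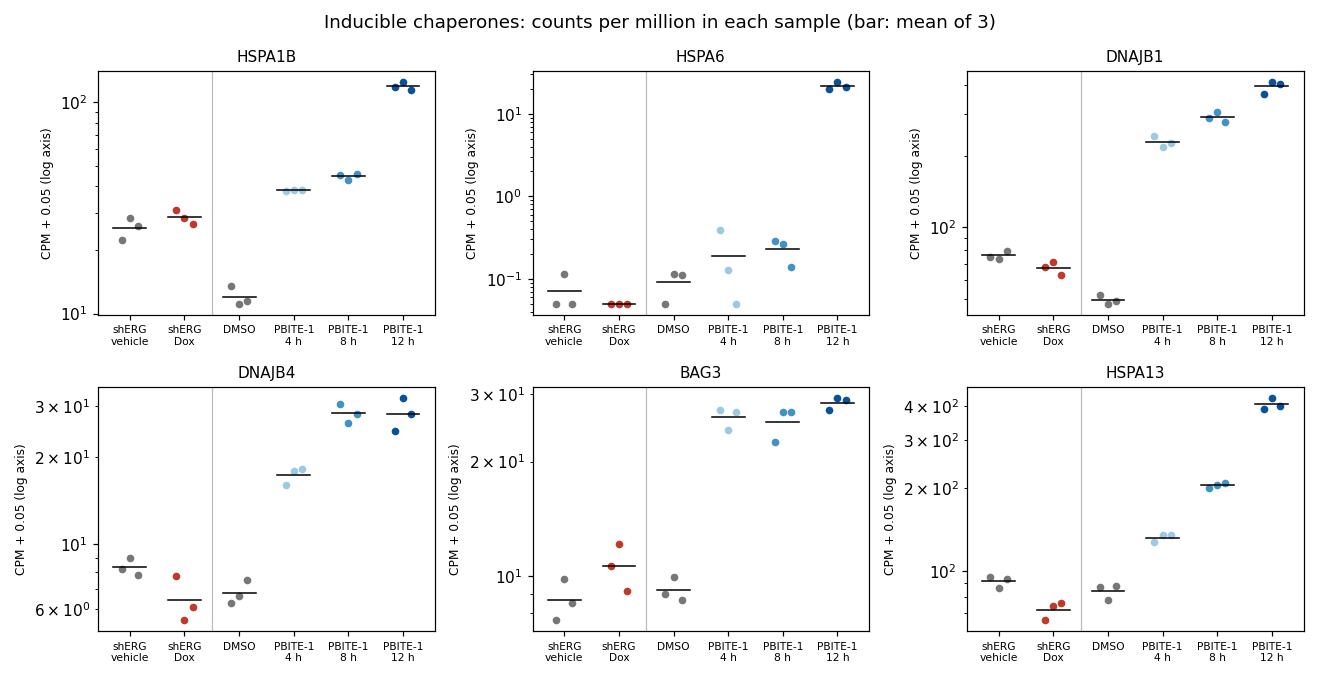
Level of 6 induced genes in every sample (CPM plus 0.05, log axis), with the 6 groups on the horizontal axis, 3 points each and a bar at their mean. HSPA6 stayed under 0.4 CPM in all groups but PBITE-1 at 12 h, where it reached 19.7 to 24.3 CPM, while DNAJB1, DNAJB4 and BAG3 had already risen at 4 h.

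The other HSP70 genes differed in time course. HSPA13, an HSP70-like ATPase of microsomes, rose at each step, from 87.1, 78.1 and 87.6 CPM in DMSO to 127, 135 and 135 at 4 h, 201, 206 and 209 at 8 h and 389.8, 427 and 398 at 12 h. Its groups never overlapped, and its log2 fold changes were 0.67 ± 0.05, 1.32 ± 0.05 and 2.31 ± 0.05. HSPA2, best known from the testis, was low throughout but rose early, from 0.415, 0.833 and 0.658 CPM in DMSO to 4.41, 3.90 and 3.53 CPM at 4 h, and stayed at 3.48, 2.07 and 3.17 CPM at 12 h. HSPA1L, another testis-enriched gene that starts 260 bases from HSPA1A on the opposite strand, was at 0.346, 0.128 and 0.778 CPM in DMSO and overlapped with it at 4 and 8 h, and at 12 h it was at 1.74, 1.27 and 1.86 CPM (log2 fold change 2.18 ± 0.53, limma adjusted p = 0.000354). That is 23, 19 and 27 counts at 12 h. Of its 31-base words, 4.38% also occur in HSPA1A, so part of these reads may come from HSPA1A. This was not tested. HSPA14, which works with DNAJC2 at the ribosome, was not called at any time, and fell by 0.43 on the log2 scale at 12 h (SE 0.10).

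HSPA8, the constitutive HSC70, was the most abundant HSP70. Per kilobase of exon it stood at 307 ± 5.33 CPM in DMSO (SD, n = 3), below only HSP90AB1 among the 35 genes, which stood at 841 ± 36.4 and near HSP90AA1 at 269 ± 6.76 and HSPD1 at 256 ± 16.6. In CPM it stood at 1508, 1503 and 1461 in DMSO, 2556, 2421 and 2418 at 4 h, 2439, 2502 and 2371 at 8 h and 2771, 2767 and 2837 at 12 h. It was therefore higher than DMSO in every PBITE-1 sample, by 0.75 ± 0.03, 0.75 ± 0.03 and 0.95 ± 0.03 on the log2 scale, short of the fold needed for a call. At 12 h its level per kilobase, 576 ± 8.08 CPM, still exceeded that of HSPA1B, 47.2 ± 2.06 CPM per kilobase.

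The J-domain genes divided by time of response. DNAJB1, the heat-inducible partner of HSP70, stood at 51.7, 47.6 and 48.7 CPM in DMSO, 242, 217 and 226 at 4 h, 289, 307 and 278 at 8 h and 366, 410.4 and 404 at 12 h, with no overlap between DMSO and treated samples. Its log2 fold changes were 2.23 ± 0.06, 2.60 ± 0.06 and 3.04 ± 0.06 (limma adjusted p = 2.87e-34 at 12 h). DNAJB4, a related partner of HSP70, went from 6.23, 6.60 and 7.48 CPM to 16.04, 17.8 and 18.2 at 4 h and 30.5, 26.2 and 28.1 at 8 h, after which it did not rise further (24.6, 31.9 and 28.2 CPM at 12 h, a difference from 8 h with a 95% interval of -0.18 to 0.17). DNAJB5 was slower, at 3.46, 3.20 and 2.87 CPM in DMSO, 5.09, 6.12 and 5.61 at 4 h and 11.9, 11.6 and 13.9 at 12 h, and was called at 8 and 12 h with log2 fold changes of 1.39 and 2.01. DNAJB2, which passes clients to the ubiquitin system, was called only at 12 h, at 1.02 ± 0.07, a value at the threshold that came to 0.99 without DMSO replicate 3. DNAJA1, the abundant J-domain protein of the cytosol, was 0.70, 0.76 and 0.76 above DMSO, DNAJB6 rose from 8 h on, by 0.49 and then 0.83, and DNAJA4 stood at 0.22 at 4 h and -0.34 at 12 h. Exons of DNAJB1 overlap those of TECR on the opposite strand and exons of DNAJB4 those of GIPC2 on the same strand, and whether the counting used strand was not given in the sources used here. HSPA2 and BAG3, also called at 4 h, held no such element in their promoter windows. The upstream stretches of DNAJB1 and DNAJB4 are shown because these early genes hold elements of 2 units and none of 3. Each of the 2 genes has several starts, and the stretch of a single start is shown. The windows of their furthest upstream starts, at chr19:14529271 and chr1:77979175, held 0 elements.
DNAJB1 (chr19:14518421-14518527, minus strand): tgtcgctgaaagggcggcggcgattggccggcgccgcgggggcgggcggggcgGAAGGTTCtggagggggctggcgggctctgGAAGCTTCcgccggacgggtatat
DNAJB4 (chr1:78004824-78004853, plus strand): tcctgtagcatttgctgTTCTAGAAagtac

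The proteins that release nucleotide from HSP70 went in opposite directions. BAG3, which couples HSP70 to autophagy, stood at 8.93, 9.93 and 8.61 CPM in DMSO, 27.2, 24.1 and 26.96 at 4 h, 22.4, 26.9 and 26.9 at 8 h and 27.2, 29.3 and 28.9 at 12 h. Its log2 fold change was 1.53 ± 0.11 at 4 h and 1.68 ± 0.11 at 12 h, and the 12 h samples differed from the 4 h samples by 0.15 ± 0.09. BAG1, which couples HSP70 to the proteasome, fell from 8 h on. It stood at 96.6, 83.2 and 79.1 CPM in DMSO and 78.4, 76.9 and 79.1 at 4 h, where the highest sample was just under the lowest of DMSO and the difference did not pass the test (limma adjusted p = 0.0988), and then at 61.03, 62.7 and 58.7 at 8 h and 37.3, 38.7 and 38.97 at 12 h. Its log2 fold change of -1.12 ± 0.07 at 12 h was called lower (limma adjusted p = 2.25e-18). Of the HSP110 genes, HSPH1 was 0.85 ± 0.05 above DMSO at 4 h and 0.97 ± 0.05 at 12 h, HSPA4L was 0.81 and 0.48 above it, and HSPA4 was 0.02 at 4 h and -0.67 at 12 h.

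The HSP90 genes moved little after PBITE-1. HSP90AB1, the constitutive cytosolic form, stood at 2607, 2391 and 2518 CPM in DMSO, 3066, 3009 and 2989 at 4 h, 2937, 2870.3 and 2830.4 at 8 h and 2095, 2178 and 2215 at 12 h, so its 4 h and 8 h samples were above DMSO and its 12 h samples below it (log2 fold changes 0.29 ± 0.03, 0.24 ± 0.03 and -0.17 ± 0.03). HSP90AA1, the inducible form, was 0.39 ± 0.03 above DMSO at 4 h and 0.19 ± 0.03 at 12 h. STIP1, which joins HSP70 to HSP90, was 0.45 above DMSO at 4 h and 0.10 at 12 h, and FKBP4, an immunophilin of steroid receptor complexes, 0.32 and -0.13. AHSA1, which stimulates the HSP90 ATPase, turned from 0.21 at 4 h to -0.42 at 8 h. CHORDC1, of the 4 HSP90 co-chaperones the one with the largest fold at 12 h, rose from 69.2, 65.7 and 67.2 CPM in DMSO to 114, 119 and 120.4 CPM at 12 h (log2 fold change 0.85 ± 0.05), below the fold needed for a call.

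**Figure D3:**
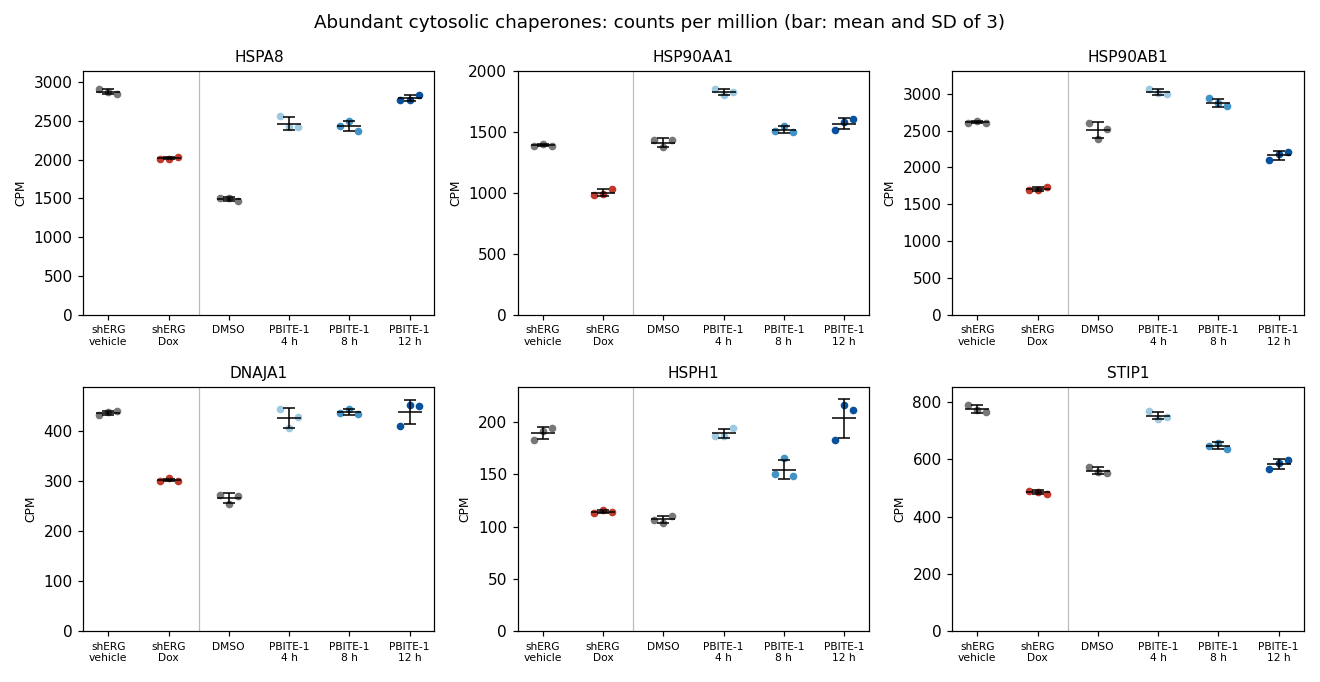
Level of 6 abundant cytosolic chaperone genes in every sample (CPM, linear axes from 0), with the 6 groups on the horizontal axis, 3 points each and the mean with its SD. All 6 were lower with Dox than with vehicle, and all 6 were higher at 4 h of PBITE-1 than in DMSO, while HSP90AB1 was below DMSO at 12 h.

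By their median, these genes were lower with Dox than with vehicle. Of the 34, 3 were called higher and 4 lower, beside 12.0% and 7.19% of all tested genes, and by adjusted p alone 9 were higher and 20 lower, beside 35.1% and 35.3%. The median log2 fold change was -0.44, against 0.02 over all genes. With HSPA1A and HSPA1B counted as 1 gene, 2 were called higher and 4 lower, beside 1698 and 1018 of 14163 tested genes. The split of calls depends on the scaling. With library sizes alone, 6 were called higher and 1 lower, beside 2430 and 506 of all 14164 tested genes. The median of all genes was then 0.28 and that of the 34 genes was -0.18. With upper-quartile scaling the calls were the same 6 and 1 in number, beside 2112 and 684 of all tested genes. The medians were then 0.18 and -0.28. Values just below 0 therefore have no direction that holds under each scaling, as for DNAJB1, which was -0.16 after Dox but 0.10 with library sizes alone.

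The lowest log2 fold changes after Dox were those of the mitochondrial chaperonin. HSPD1, its large subunit, stood at 1516, 1619 and 1578 CPM with vehicle and 520.4, 520.1 and 578 CPM with Dox, a log2 fold change of -1.54 ± 0.03 (limma adjusted p = 3.25e-24). HSPE1, its lid, stood at 224, 224 and 228 CPM with vehicle and 102, 100.01 and 98.8 CPM with Dox (-1.16 ± 0.04). HSPA9, the mitochondrial HSP70, was just short of a call at -0.97 ± 0.02. HSPA14 went from 21.7, 22.8 and 20.2 to 10.8, 10.3 and 9.53 CPM (-1.07 ± 0.11) and BAG1 from 85.3, 87.02 and 86.4 to 42.5, 37.8 and 39.1 CPM (-1.11 ± 0.06). None of these 5 genes had overlapping groups, which held for most of the 35 genes, in either direction. The share of all genes without overlap was not counted. HSPA14, HSPE1 and BAG1 were no longer past a log2 fold change of 1 when library sizes alone or upper quartiles were used. Exons of HSPA14 overlap those of another gene entry of the same name on the same strand and those of CDNF on the opposite strand. Of the 31-base words of HSPA14, 16.5% also occur in that other entry, so part of its reads may belong there. This was not tested.

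After PBITE-1, HSPE1 passed the threshold for a call and HSPD1 did not. HSPE1 fell at each time, from 181, 180.3 and 176 CPM in DMSO to 137, 138 and 145 at 4 h, 83.6, 78.8 and 85.7 at 8 h and 53.7, 51.1 and 52.4 at 12 h, with log2 fold changes of -0.33 ± 0.04, -1.08 ± 0.05 and -1.73 ± 0.05. HSPD1 stood at 1144, 1008 and 1105 CPM in DMSO and 805, 901 and 887 CPM at 12 h, with log2 fold changes of 0.18, -0.06 and -0.28. HSPA9 did not pass the test at 4 or 12 h, and the 95% interval of its log2 fold change at 12 h was -0.07 to 0.08. HSPD1 and HSPE1 are neighbours on chromosome 2, at chr2:197486581-197516737 and chr2:197499994-197503457, transcribed away from each other from starts 105 or 539 bases apart, depending on the HSPD1 start, with exons that overlap in part on opposite strands, and reads from the overlapping part cannot be told apart if strand was not used.

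**Figure D4:**
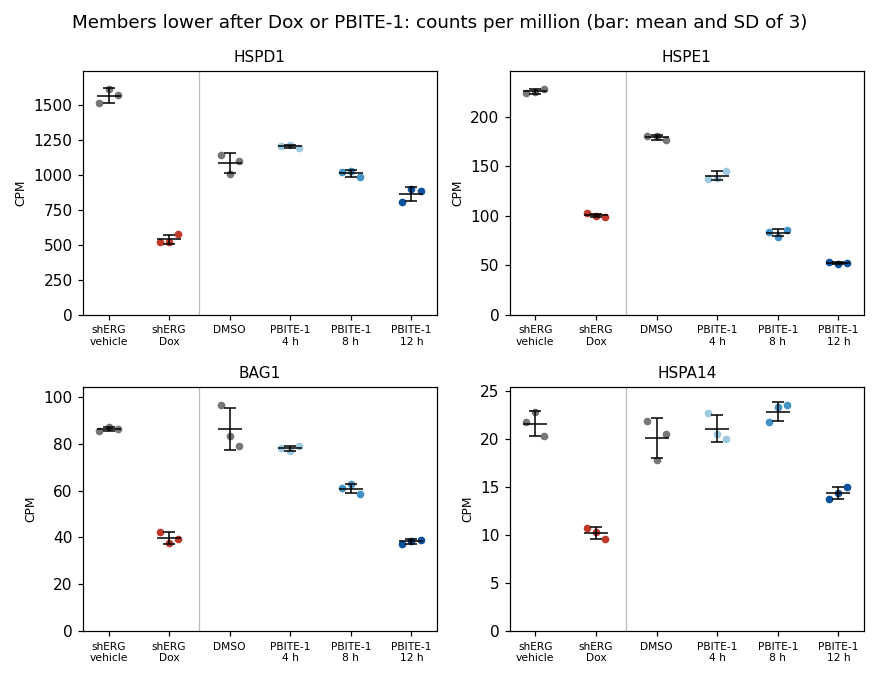
Level of HSPD1, HSPE1, BAG1 and HSPA14 in every sample (CPM, linear axes from 0), with the 6 groups on the horizontal axis, 3 points each and the mean with its SD. HSPE1 and BAG1 fell both with Dox and with PBITE-1, to 51.1 to 53.7 CPM and 37.3 to 39.0 CPM at 12 h, whereas the fall of HSPD1 to 520 to 578 CPM was seen with Dox.

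Of the genes called higher after Dox, HSPB1 and HSPB8 are small heat shock proteins, which hold unfolded proteins without ATP, and both were scarce in these cells. HSPB1 had 5, 3 and 2 counts with vehicle and 18, 30 and 19 with Dox, a log2 fold change of 2.65 ± 0.51, with no p given because it entered the test only through the Dox samples. HSPB8, a partner of BAG3, stood at 0.858, 1.33 and 1.13 CPM with vehicle and 5.95, 5.07 and 5.82 CPM with Dox (2.32 ± 0.28). Neither was called after PBITE-1, where HSPB1 was at 3, 6 and 8 counts in DMSO and 0, 2 and 3 at 12 h. HSPA1A was the other call, at 1.79, 1.71 and 3.03 CPM with vehicle and 5.48, 5.87 and 5.09 CPM with Dox, but the sum of HSPA1A and HSPA1B changed by 0.30 ± 0.08 and was not called. DNAJA4, DNAJB2 and DNAJB5 were 0.69, 0.95 and 0.88 above vehicle, below the fold needed, and DNAJB5 came to 1.12 without shERG vehicle replicate 3.

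The response to PBITE-1 at 12 h was tested against the response to Dox in a fit of all 18 samples. It exceeded that to Dox in 14 genes and fell short of it in 4, beside 13.0% and 15.9% of all genes. The difference was 3.16 ± 0.09 for DNAJB1, 3.15 ± 0.12 for HSPA1B, 2.60 ± 0.08 for HSPA13, 2.43 ± 0.21 for DNAJB4, 1.65 ± 0.07 for HSPH1 and 1.41 ± 0.03 for HSPA8 on the log2 scale. The genes in the other direction were HSPB1, HSPB8, DNAJA4 and SERPINH1, with differences of -4.32, -1.85, -1.07 and -1.03, that of HSPB1 resting on 0, 2 and 3 counts at 12 h and so on the prior count. For BAG1 the difference was -0.05 with a 95% interval of -0.24 to 0.13, and for DNAJB2 it was 0.03 with an interval of -0.16 to 0.22. By adjusted p in each comparison, 10 genes were lower after Dox and higher at 12 h of PBITE-1, namely HSPA4L, HSPA8, HSPA13, HSP90AA1, HSPH1, DNAJA1, DNAJB1, DNAJB4, CHORDC1 and STIP1, beside 7.86% of all tested genes. With upper-quartile scaling 7 of them had this pattern, without HSPA4L, DNAJB1 and DNAJB4, beside 5.32% of all tested genes. With library sizes alone 5 had it, HSPA8, HSP90AA1, HSPH1, DNAJA1 and CHORDC1, beside 3.83%. Cell line and agent differ between the 2 arms and cannot be told apart.

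**Figure D5:**
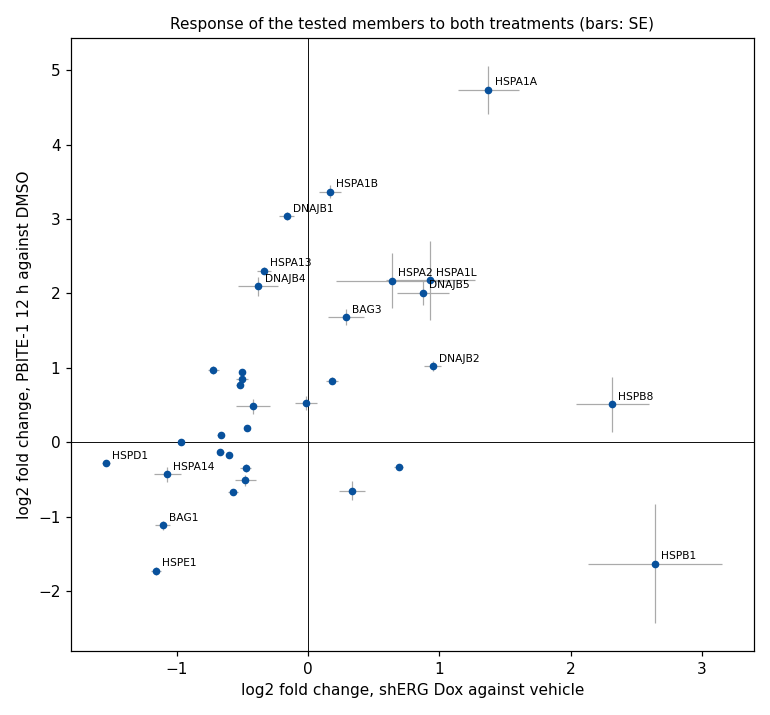
Log2 fold change after Dox (horizontal axis) against that after 12 h of PBITE-1 (vertical axis) for the tested genes, with bars of 1 SE. HSPA6, at or under 3 counts in both shERG groups, is left out. Induced genes such as DNAJB1 (3.04 after PBITE-1, -0.16 after Dox) lie high near 0 on the horizontal axis, HSPE1 and BAG1 lie low on both axes, and HSPB1 and HSPB8 lie far to the right.

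The 2 control groups did not hold the same chaperone levels, which bears on any reading of levels across the arms. Between shERG vehicle and parental DMSO, 3 of the 34 genes were called higher and 0 lower in limma, edgeR and DESeq2, beside 1.19% and 5.00% of all genes, with 2 lower by unadjusted p under 0.05. These were HSPA1A (1.44 ± 0.38), HSPA1B (1.10 ± 0.10) and HSPA1L (1.55 ± 0.55), and HSPA8, at 2876 ± 34.9 against 1491 ± 25.9 CPM (SD, n = 3), was 0.95 higher. The level of HSPA8 with vehicle was thus close to that of PBITE-1 at 12 h, 2792 ± 39.2 CPM, whereas DNAJB1 at 76.1 ± 3.14 CPM with vehicle was well below its 229 ± 12.7 CPM at 4 h. The summed share of the 35 genes in all counts was 1.32% with vehicle, 1.01% with Dox, 1.03% in DMSO, 1.29% at 4 h, 1.21% at 8 h and 1.20% at 12 h.

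Of the heat shock factors, HSF1 and HSF2 were not called in any comparison with a control. HSF1 stood at 38.1, 42.9 and 38.4 CPM in DMSO and 25.5, 27.8 and 27.9 CPM at 12 h, a log2 fold change of -0.51 ± 0.07, and at -0.48 ± 0.08 after Dox. HSF2 was 0.53 ± 0.09 above DMSO at 12 h. SERPINH1 was -0.65 ± 0.13 at 12 h. Of the other HSF genes and HSF-binding proteins on a fixed list, HSF4, HSBP1 and HSBP1L1 were tested, and all 3 were called lower at 12 h, beside 15.4% of all tested genes, at -2.11, -1.02 and -2.37, with HSBP1 encoding a protein that binds HSF1.

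Heat shock elements were counted in the promoters of these genes and of all genes. Windows from 250 bases before to 50 bases after the RefSeq start were searched on both strands for GAANNTTC and TTCNNGAA (2 units) and for the longer element of 3 alternating units, in which GAA and TTC follow each other with any 2 bases between them and which therefore also contains 2-unit matches. The shorter motif was in 21 of 46 windows of 31 of the genes (45.7%) and in 13.5% of all 35116 windows, and the longer in 9 of 46 (19.6%) and 0.490%. HSPA14, FKBP4, HSF1 and CRYAB had no window. Of the 9 genes with the longer motif, 1 (HSPA6) was called higher at 12 h, beside 17.1% of all tested genes, and their log2 fold changes ran from -0.65 (SERPINH1) up to the late rise of HSPA6, with a median of 0.76. Of the 22 without it, 10 were called higher, from -1.73 to 4.73 with a median of 0.75. Of the 20 genes with the shorter motif, 6 were called higher, with a median of 0.64. Of the 11 without the shorter motif, 5 were called higher, with a median of 0.97. HSPA6 is counted among the called genes with each motif. It passed the filter on low counts only through the 12 h samples, so the counts that include it are a description only. A match of letters is a description of the window and not a bound site. Of the stretches below, those of HSPA8, CHORDC1, HSP90AA1, HSPD1 and SERPINH1 lie within annotated exons of their own gene. That of HSPD1 also overlaps an exon of HSPE1. HSP90AA1, HSP90AB1, HSPD1 and SERPINH1 have several starts, and the window of a single start is shown. The genes below show how similar elements stood beside different responses, with HSPA8, CHORDC1 and DNAJB6 at 0.95, 0.85 and 0.83, HSP90AA1 and HSP90AB1 at 0.19 and -0.17, and HSPD1 and SERPINH1 at -0.28 and -0.65 at 12 h.
HSPA8 (chr11:123062171-123062200, minus strand): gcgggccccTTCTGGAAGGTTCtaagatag
CHORDC1 (chr11:90223085-90223114, minus strand): gaccgGAAAATTCGCGAAGGTTCCTGAAac
DNAJB6 (chr7:157336864-157336893, plus strand): aagagccgaGAACCTTCGCGAAggtggggc
HSP90AA1 (chr14:102087105-102087134, minus strand): tcTTCCGGAAGGTTCgggaggcTTCTGGAA
HSP90AB1 (chr6:44247825-44247854, plus strand): agattgTTCTGGAAGCTTCtggattctggc
HSPD1 (chr2:197500061-197500090, minus strand): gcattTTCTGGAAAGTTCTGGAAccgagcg
SERPINH1 (chr11:75562169-75562198, plus strand): ttccaactTTCCAGAAGTTTCtcgggacgg

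The wider chaperone network was read from lists fixed along with the members. Among all tested genes, 17.1% were called higher and 15.4% lower at 12 h, and 12.0% and 7.19% after Dox. Of 11 other co-chaperones of HSP90, 1 was called higher and 1 lower at 12 h, CDC37L1 at 1.41 and AARSD1 at -1.08, and after Dox FKBP5, an androgen-regulated immunophilin, was the single call at -1.50 ± 0.04. Of 14 other partners of HSP70, DNAJC7 was the single call at 12 h, at -1.12, while DNAJC2 and DNAJC9 were called lower after Dox at -1.09 and -1.04, calls lost with upper-quartile scaling and with library sizes alone. The median log2 fold changes of these lists at 12 h were -0.24 and -0.20. The TRiC chaperonin and its partner prefoldin, which fold actin and tubulin, were lower by adjusted p in 12 of 14 genes after Dox, beside 35.3% of all genes, and in 13 of 14 at 12 h of PBITE-1, beside 39.4%, with medians of -0.71 and -0.58 and with PFDN6 called at -1.80 at 12 h. After Dox, 11 of the 14 were lower by adjusted p with upper-quartile scaling and 10 with library sizes alone. Among 9 other genes of mitochondrial proteostasis, 9 were lower by adjusted p after Dox (8 under each of these scalings), and at 12 h 5 were lower and 3 higher, beside the same shares of all genes, TRAP1, the mitochondrial HSP90, at -1.35 and -1.47. Of 7 other small heat shock proteins, HSPB6 alone passed the filter, at 3.06 at 12 h.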

How the data were processed

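Total RNA from 18 VCaP samples was depleted of ribosomal RNA and sequenced as paired ends. The deposited values are counts per gene in whole numbers, made by the authors without normalization. The sources differ on how: the study's methods name Kallisto, the submitters' processing notes name STAR, featureCounts and hg38, and the annotation and use of strand are not given in the sources used here. Counts of near-identical or overlapping genes are uncertain for that reason. Members and gene lists were chosen with earlier results of these data known.

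Genes were kept by filterByExpr (14164 of 22034), scaled by TMM in edgeR 4.0.16 and tested with limma-voom 3.58.1 under R 4.3.3, the 6 shERG and 12 parental samples separately. The response difference and the 2 controls were tested in a fit of all 18. The floor was 3 counts, and it covers counting error only. Members were given per sample where called in at least 1 of the 4 comparisons with a control, at a mean count of at least 50 over the 18 samples. HSPA8, HSPA2, HSPA1L, HSP90AB1, HSPB1, HSPB8, CHORDC1 and HSF1 were added after their values were seen. Of other lists, at most 4 called genes were named. Positions and 31-base words are from GENCODE 29 on GRCh38, and promoters from RefSeq on GRCh38.p14. The fit was tested on simulated data. Replicates of a group differed by more than sampling noise (chi-square per degree of freedom 1.70 to 4.96), so each was counted once. Alternatives were other scalings and filters, edgeR, DESeq2 1.42.0, other sample sets, quality weights, a replicate block, leaving out each sample, and HSPA1A and HSPA1B counted as 1 gene.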

Additional observations from a re-analysis of the deposited data

Results flagged for a closer look

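The responses to PBITE-1 at 12 h and at 4 h differed past the threshold for a call in 8 of the 34 genes, by the direct test of 12 h against 4 h in limma. Of these, 6 were higher at 12 h. HSPA1A differed by 2.73 ± 0.20 on the log2 scale (SE), HSPA1B by 1.65 ± 0.06, HSPA13 by 1.63 ± 0.05, DNAJB5 by 1.16 ± 0.15 and HSPA1L by 2.21 ± 0.57. HSPA6 had a fitted difference of 7.57 ± 0.66, which depends on the prior count because 4 h held 4, 1 and 0 counts, and the gene entered the test only through the 12 h samples. The other 2 were lower at 12 h, HSPE1 at -1.40 ± 0.05 and BAG1 at -1.01 ± 0.07. In each of these but HSPA1L and HSPA6, the adjusted p was at or below 9.55e-09, and for HSPA1L it was 0.000738. No p is given for HSPA6. Calls higher and lower at 12 h against 4 h came to 9.08% and 11.0% of all tested genes. Between 8 h and 4 h, 0 members were called in limma, edgeR and DESeq2, beside 4.43% and 2.22% of genes called, and 6 were higher and 13 lower by unadjusted p under 0.05. Between 12 h and 8 h, 4 members were called higher and 0 lower, beside 3.48% and 6.59%.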

How the results depend on the processing

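Of 873 alternative values of the 13 genes described in detail, 858 kept their direction and their side of the threshold, 9 fell below it, 5 passed it and 1 that was not called changed sign, DNAJB1 after Dox, at 0.10 with library sizes alone. HSPA6 after Dox and at 4 and 8 h, where both groups were at or under 3 counts on average, was left out of these. With at least 10 counts required in every sample, which removes the genes that are low in some group, the members called came to 4 for Dox, 1 for 12 h against 8 h, 5 for 12 h against 4 h and 1 for shERG vehicle against DMSO, from 7, 4, 8 and 3. Calls higher fell from 6 to 4 at 4 h, from 8 to 6 at 8 h and from 11 to 7 at 12 h. Calls lower stayed at 0, 1 and 2. For the response difference 11 were higher and 2 lower, from 14 and 4. This filter left 11807 genes tested. Leaving out 1 sample at a time gave 7 to 8 calls for Dox, 6 at 4 h, 9 at 8 h, 12 to 14 at 12 h, 0 to 1 for 8 h against 4 h (1 without PBITE-1 8 h replicate 1 or replicate 3), 4 to 5 for 12 h against 8 h, 7 to 8 for 12 h against 4 h, 16 to 19 for the response difference and 2 to 3 between controls. With HSPA1A and HSPA1B counted as 1 gene, 3 were called higher for 12 h against 8 h and 5 for 12 h against 4 h. For the response difference 13 were called higher, and between controls 2. All tested genes called higher in these comparisons were 492, 1285, 1839 and 167 of 14163. With upper-quartile scaling, HSPA14, HSPE1 and BAG1 after Dox came to -0.91, -0.996 and -0.94, under the threshold, and DNAJB2 and DNAJB5 to 1.11 and 1.04, over it. With library sizes alone they came to -0.81, -0.90, -0.85, 1.21 and 1.14. DNAJB2 at 12 h fell to 0.98 with library sizes alone or with all 18 samples in a single fit, and to 0.99 without DMSO replicate 3, and DNAJB5 after Dox came to 1.12 without shERG vehicle replicate 3. Same-numbered samples did not deviate together (correlations of -0.02 to 0.04 over 21 pairs), so the numbers were not taken as pairs, and with a replicate block 10 members were called at 8 h instead of 9, HSPA6 being added, with 7, 6 and 13 called for Dox, 4 h and 12 h as without it. The cause of these changes was not tested. Depth limits what can be said of CRYAB, HSPB1, HSPA1L and HSPA6 outside 12 h, with few counts in some groups.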

Other observations

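Other genes that heat shock is known to induce, which encode no chaperone, held some of the largest changes among the listed genes. IER5, an immediate early gene known to act on HSF1, was 3.81 ± 0.17, 3.79 ± 0.17 and 3.64 ± 0.17 above DMSO at 4, 8 and 12 h on the log2 scale (SE) and -0.31 ± 0.20 after Dox. RGS2, a regulator of G protein signalling, was 2.97 ± 0.19, 3.21 ± 0.19 and 2.32 ± 0.20 above DMSO. DEDD2 was called at 12 h at 1.14 ± 0.11 and CACYBP was called lower after Dox at -1.09, a call lost with upper-quartile scaling and with library sizes alone. Of the 8 genes on this list, 2, 2 and 3 were called higher at 4, 8 and 12 h, beside 7.28%, 14.9% and 17.1% of all tested genes.

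Among 10 chaperones of the endoplasmic reticulum, DNAJB9, a J-domain partner of BiP, was the single call at each time of PBITE-1, at 1.63 ± 0.13, 1.38 ± 0.13 and 4.08 ± 0.11. HSPA5, which encodes BiP itself, was at 0.13 ± 0.03 at 12 h. After Dox, HSPA5 and PDIA4 were called lower at -1.01 ± 0.02 and -1.03 ± 0.03, and by adjusted p alone 8 of the 10 genes were lower and 2 higher, beside 35.3% and 35.1% of all tested genes. With upper-quartile scaling or library sizes alone, 7 were lower and 2 higher, and neither HSPA5 nor PDIA4 was called.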
